A study of Mus musculus with 12 samples.

Results

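The aldo-keto reductases of the 1c and 1b branches were followed in liver tumors of aged mice as 10 genes, Akr1c6, Akr1c12, Akr1c13, Akr1c14, Akr1c18, Akr1c19, Akr1c20, Akr1b7, Akr1b8 and Akr1b10. These are 10 of the 24421 genes with a row in the deposited counts, and they were taken by symbol. The list was chosen by tumor and liver levels in these libraries, with Akr1c18 near absent in livers and present in every tumor, so differences between tumors and livers are given for these 10 genes as a description without a test. All 10 passed the filter on low counts, which Akr1c18 could do only through the tumors.

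Poly(A) RNA came from 12 bulk samples. p21+/Tert mice carry telomerase reverse transcriptase (Tert) under the p21 promoter, and p21+/TertCi mice carry a catalytically inactive Tert in the same place. All animals compared here carried 1 of these 2 alleles, were fed the standard diet, and were old, with only a lower limit of age in the methods. Of the p21+/Tert group there were 4 non-tumoral livers, labelled p_961, p_663, p_941 and NT_992, and 4 tumors, namely the adenoma T-HCA992 and the carcinomas T-HCC941, T-HCC663 and T-HCC662 by name. Of the p21+/TertCi group there were 2 livers, labelled L981_CI and L984_CI, and 2 tumors, the adenoma TCi-HCA984 and the carcinoma TCi-HCC981. Every liver was taken from an animal that bore a tumor. Driver classes came from the mutations that the study lists for each tumor and not from the labels: Ctnnb1 in T-HCC662 and T-HCC663, Egfr in T-HCC941, Hras in TCi-HCC981, and neither kind in T-HCA992 and TCi-HCA984, which are called driver-negative here. Each class thus held 2 tumors, each tumor is a single lesion, and both Ctnnb1-mutated tumors were p21+/Tert, so for the Ctnnb1 class, class and genotype cannot be told apart except within the p21+/Tert tumors, while each of the other classes held 1 tumor of each genotype.

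Aldo-keto reductases use NADPH or NADH to reduce aldehydes and ketones to alcohols. The 1c enzymes act mainly on steroids and the 1b enzymes on aldehydes of sugars, lipids and steroid synthesis. Liver uses several of them to inactivate hormones and to detoxify reactive carbonyls, and the human enzyme AKR1B10 is known for high levels in many hepatocellular carcinomas.

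Between 14571716 and 26170661 reads per library fell on genes, and levels are given as CPM, the read count per 1000000 reads of a library scaled by edgeR's TMM factors. Genes were called by the quasi-likelihood test of edgeR where the Benjamini-Hochberg adjusted p was below 0.05, log2 differences carry their standard error (SE), and n counts libraries. Reads of the Y-linked gene Ddx3y were present in all 12 libraries (at least 36.3 CPM), and Xist stayed at or below 1.46 CPM. Hepatocyte markers were abundant in every library, with a summed level of 9 genes between 36310 and 60400 CPM in livers and between 22150 and 97360 CPM in tumors. Liver L981_CI stood apart in macrophage markers (7 genes, 1351 CPM summed, against 123 to 282 CPM in the other livers). Hsd3b5, which is known as a male-biased liver gene, was at 0.126 CPM in liver L981_CI and 0.485 CPM in liver L984_CI against 32.1 to 354 CPM in the p21+/Tert livers. In bulk RNA, fewer cells of a type and less RNA per cell cannot be told apart.

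The 7 Akr1c genes lie together on chromosome 13 (GRCm38, positions 4049011 to 4523345, a span of 474335 bases) and the 3 Akr1b genes on chromosome 6 (34354119 to 34423142, 69024 bases). All are protein-coding, with 972 coding bases in each Akr1c gene and 951 in each Akr1b gene. Coding sequences were 72.4% to 96.2% identical between Akr1c genes, 84.9% to 89.3% between Akr1b genes, and 55.2% to 57.2% between the branches. Akr1c12 and Akr1c13 were the closest pair at 96.2%, followed by Akr1c6 and Akr1c20 at 92.3%. Of the windows of 150 bases in their longest transcripts, 7.10% of those of Akr1c12 and 7.10% of those of Akr1c13 occurred unchanged in the other gene, so reads could be split between them and their separate levels are uncertain. The other 8 genes had no such window in any other gene.

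RefSeq (GRCm38.p6) promoter windows were found for 9 of the 10 genes, Akr1c20 being the exception. The bases before the start, from 250 bases upstream to the first base that the gene annotation places in the transcript, are shown for Akr1c18 and Akr1c6, whose levels moved in opposite directions between tumor classes, and for Akr1b7, the Akr1b gene with the largest difference between tumors and livers. Capitals mark a match to a searched motif, and the runs read 5′ to 3′ on the strand of the gene. They lie at chr13:4150655-4150896 (minus strand), chr13:4434093-4434305 (plus strand) and chr6:34412112-34412333 (plus strand).
Akr1c18: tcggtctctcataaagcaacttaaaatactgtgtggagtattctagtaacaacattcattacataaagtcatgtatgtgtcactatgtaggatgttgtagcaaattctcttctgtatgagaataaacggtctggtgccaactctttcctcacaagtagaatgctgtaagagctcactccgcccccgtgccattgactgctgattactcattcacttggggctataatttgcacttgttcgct
Akr1c6: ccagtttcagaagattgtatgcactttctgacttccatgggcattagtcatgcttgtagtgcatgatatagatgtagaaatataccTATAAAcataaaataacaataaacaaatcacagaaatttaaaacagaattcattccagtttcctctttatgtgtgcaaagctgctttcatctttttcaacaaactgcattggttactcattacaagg
Akr1b7: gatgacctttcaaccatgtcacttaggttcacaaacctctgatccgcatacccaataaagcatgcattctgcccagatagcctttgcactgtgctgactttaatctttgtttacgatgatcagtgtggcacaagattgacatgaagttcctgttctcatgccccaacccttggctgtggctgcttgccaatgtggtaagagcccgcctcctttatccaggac

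The next pair is shown because Akr1c12 and Akr1c13 were also alike before their starts: over the 250 bases upstream of the RefSeq start they were 92.5% identical, with 11 mismatched bases and 8 gap positions, while no other pair of the 9 genes exceeded 58.7%. The runs below stop short of those 250 bases, at the annotated transcripts, and so show only part of the differences. Capitals here mark bases that differ from the partner or lie opposite a gap. The runs lie at chr13:4279434-4279649 (minus strand) for Akr1c12 and chr13:4190937-4191149 (plus strand) for Akr1c13.
Akr1c12: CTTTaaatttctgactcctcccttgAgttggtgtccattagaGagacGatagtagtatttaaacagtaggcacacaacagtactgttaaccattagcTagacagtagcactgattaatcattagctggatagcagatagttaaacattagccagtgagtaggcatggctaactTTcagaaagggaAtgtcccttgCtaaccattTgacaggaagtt
Akr1c13: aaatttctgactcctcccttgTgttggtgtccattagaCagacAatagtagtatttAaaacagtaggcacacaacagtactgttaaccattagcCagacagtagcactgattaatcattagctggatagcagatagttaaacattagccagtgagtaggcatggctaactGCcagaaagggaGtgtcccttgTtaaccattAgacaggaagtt

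Motifs were searched on both strands from 250 bases before to 50 bases after the start, with no motif contained in another. The antioxidant response element core TGACNNNGC was found in 1 of the 9 windows, that of Akr1c19, as GCTTAGTCA on the plus strand from base 7 to base 15 counted from 0 at the start, and 12.4% of all 32851 promoter windows held it. TATAAA was found in Akr1c6 and, as its reverse complement, in Akr1b8, against 13.6% of all windows. The AP-1 letters TGANTCA, the TCF/LEF letters CTTTGAA or CTTTGAT, and the HNF4 letters CAAAGTCCA were in none of the 9, against 7.81%, 8.65% and 0.475% of all windows.

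Akr1c18, known as the 20-alpha-hydroxysteroid dehydrogenase that inactivates progesterone, was the one member whose tumors and livers did not overlap in any library. Its level was 0 CPM in livers p_961, p_941, L981_CI and L984_CI, 0.193 CPM in liver p_663, and 0.107 CPM in liver NT_992. Among tumors it was lowest in the Ctnnb1-mutated T-HCC663 (9.82 CPM) and T-HCC662 (15.1), followed by the Egfr-mutated T-HCC941 (29.0), and was 75.2 in TCi-HCA984, 79.8 in T-HCA992 and 94.5 in TCi-HCC981. Every tumor therefore lay far above every liver, and the 2 lowest tumors were the Ctnnb1-mutated ones. The 6 livers together gave 5 reads of Akr1c18 (exact 95% Poisson interval 1.62 to 11.7, counting error only), or 0.0472 CPM, while the 6 tumors gave 6489 reads, or 50.5 CPM. Both p21+/TertCi livers were at 0, so against a floor of 3 reads over the pair the p21+/TertCi tumors (84.9 ± 13.7 CPM, SD, n = 2) were at least 1257-fold higher.

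Complete separation of 6 tumors from 6 livers was found for 1 of the 10 members and for 5.11% of the 13822 genes tested. Nothing is read from that comparison, since Akr1c18 was listed for this separation. Among the other 9 genes, Akr1b7 came closest, with only TCi-HCA984 inside the range of the livers. Without that tumor 2 members separated, but the share of all genes is not given for that set, so nothing is read from it.

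**Figure D1:**
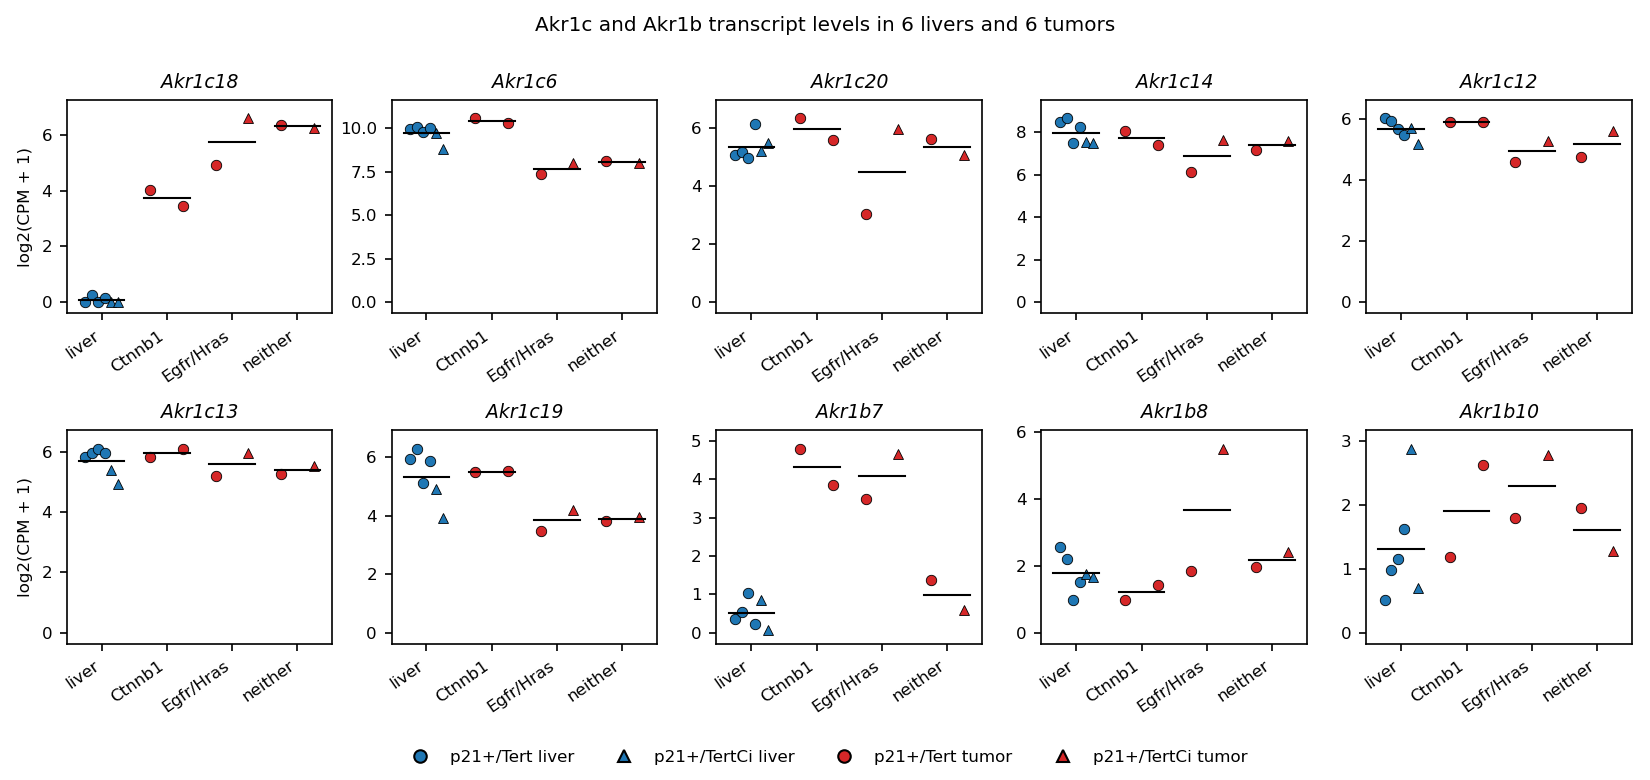
Level of each gene as log2(CPM + 1) on the vertical axis, for livers (n = 6) and for tumors by driver class (n = 2 each), with circles for p21+/Tert, triangles for p21+/TertCi, and a line at the mean. Akr1c18 is at or near 0 in all livers, and Akr1c6 separates the Ctnnb1-mutated tumors from the other 4.

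Akr1c6, known as a 17-beta-hydroxysteroid dehydrogenase of mouse liver, was the most abundant of the 10 per length in livers (429 CPM per kb of exon, mean of 6). In livers it ranged from 449 to 1071 CPM (median 931). In the tumors it was 1487 CPM in T-HCC662 and 1252 in T-HCC663, but 165 in T-HCC941, 270 in T-HCA992, 249 in TCi-HCC981 and 254 in TCi-HCA984. The Ctnnb1-mutated tumors lay above all livers and the other 4 tumors below all of them. A mean over all tumors (613 ± 592 CPM, SD, n = 6) hides this split.

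Akr1c14, known as a 3-alpha-hydroxysteroid dehydrogenase, was the next most abundant per length in livers (83.0 CPM per kb), with 179 to 403 CPM (median 247) in livers and 69.1 to 268 CPM (median 182) in tumors. The lowest value was that of T-HCC941, and the 2 groups overlapped. Akr1c12 ranged from 35.6 to 64.1 CPM in livers and from 23.4 to 59.5 CPM in tumors, and Akr1c13 from 29.4 to 67.2 CPM and from 35.6 to 66.3 CPM. Neither gene of this near-identical pair separated the tissues.

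Akr1c20, the gene closest in sequence to Akr1c6, ranged from 29.8 to 68.6 CPM in livers and from 7.18 CPM in T-HCC941 to 78.4 CPM in T-HCC662, and did not follow the split of Akr1c6: TCi-HCC981 stood at 60.1 CPM, above T-HCC663 at 46.6 CPM. Akr1c19 was at 14.1 to 77.3 CPM in livers, at 44.1 and 45.3 CPM in the Ctnnb1-mutated tumors T-HCC662 and T-HCC663, and at 10.3 to 17.2 CPM in the other 4 tumors. Exons of Akr1c19 overlap the counted pseudogene Marcksl1-ps4 on the same strand, and reads on the overlap may have been lost or credited to either. The Akr1c19 level is uncertain to that extent, and Marcksl1-ps4 itself had a mean of 18.0 CPM in livers and 7.11 CPM in tumors.

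The makeup of the Akr1c transcripts shifted with class. Per length, Akr1c6 made up 62.8% to 73.4% of the summed Akr1c level in livers, 76.0% and 76.8% in T-HCC662 and T-HCC663, and 33.2% to 46.2% in the other 4 tumors. Akr1c18 made up at most 0.0207% in livers, 1.30% and 1.01% in the Ctnnb1-mutated tumors, and 13.7% to 21.2% in the others. On the same scale, the level of Akr1c18 in T-HCA992, TCi-HCC981 and TCi-HCA984 (66.1, 78.3 and 62.3 CPM per kb) exceeded that of every Akr1c gene there except Akr1c6. The CPM summed over the 7 genes was 754 to 1709 in livers, 1647 and 2008 in the Ctnnb1-mutated tumors, and 340 to 717 in the other tumors, so the other tumors lay below every liver.

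**Figure D2:**
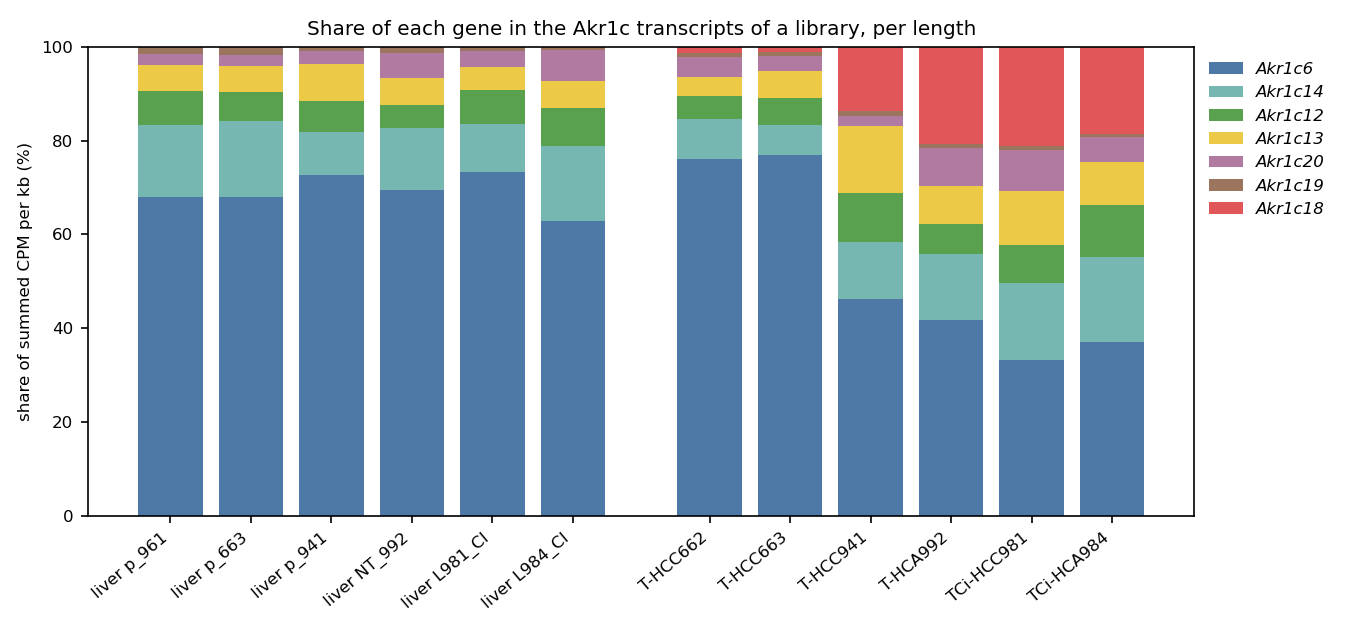
Share of each Akr1c gene in the summed level per kb of exon (vertical axis, %), for each of the 6 livers and 6 tumors. Akr1c18 is not visible in livers, takes 1.01% to 1.30% in the Ctnnb1-mutated tumors T-HCC662 and T-HCC663, and 13.7% to 21.2% in the other 4.

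Akr1b7, an aldose reductase-like enzyme known from the adrenal cortex and vas deferens, ranged from 0.0485 to 1.06 CPM in livers (median 0.367). It reached 26.8 CPM in T-HCC662, 24.4 in TCi-HCC981, 13.4 in T-HCC663 and 10.3 in T-HCC941, the 4 tumors with a Ctnnb1, Egfr or Hras mutation. These are also the 4 tumors named as carcinomas, so mutation and name cannot be told apart here. Of the driver-negative tumors, T-HCA992 was at 1.61 CPM, just above the highest liver, and TCi-HCA984 at 0.511 CPM, inside their range. The fitted difference between tumors and livers was 4.77 on the log2 scale (SE 0.93), a description only.

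Akr1b8, known as an aldose reductase-like gene that responds to growth factors, was at 0.986 to 4.87 CPM in livers. Of the tumors, TCi-HCC981 stood at 43.9 CPM, and the other 5 were at 4.26 (TCi-HCA984), 2.87 (T-HCA992), 2.59 (T-HCC941), 1.71 (T-HCC663) and 0.946 CPM (T-HCC662). The Hras-mutated tumor TCi-HCC981 alone carried the difference from livers, which was 1.83 (log2, SE 0.86) with it, -0.094 without it and 0.58 with the mouse as a block. Akr1b10 was at 0.424 to 6.34 CPM in livers and at 1.26 to 5.86 CPM in tumors, so the groups overlapped throughout. Its highest liver was L981_CI, the library high in macrophage markers, and the part of those cells in the value was not tested.

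Per length, the order of the 10 genes in livers (mean CPM per kb, n = 6) was Akr1c6 (429), Akr1c14 (83.0), Akr1c12 (40.4), Akr1c13 (36.6), Akr1c20 (21.8), Akr1c19 (7.69), Akr1b8 (1.76), Akr1b10 (0.550), Akr1b7 (0.365) and Akr1c18 (0.0415). Ranges over the livers did not overlap between Akr1c6 and Akr1c14, Akr1c14 and Akr1c12, or Akr1c20 and Akr1c19, and did overlap between all other neighbours in that order. In the tumors the order was Akr1c6 (301), Akr1c14 (53.7), Akr1c18 (41.9), Akr1c13 (34.8), Akr1c12 (33.5), Akr1c20 (24.4), Akr1b7 (10.0), Akr1b8 (6.26), Akr1c19 (4.09) and Akr1b10 (0.899).

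Each tumor could also be set against the liver of its own mouse, with liver p_961 taken as that of the mouse of T-HCC662, the one tumor without a liver of its own number. Akr1c18 and Akr1b7 were higher in the tumor in 6 of 6 mice, by 3.18 to 6.58 and by 0.53 to 4.44 on the log2(CPM + 1) scale, which understates the change of low genes. Akr1c6 was higher in the 2 mice with Ctnnb1-mutated tumors (by 0.60 and 0.22) and lower in the other 4 (by 0.82 to 2.42). Akr1b8 went the other way in those 2 mice, where its differences were -1.59 and -0.75, and was higher in the other 4, by 0.45 to 3.73. Akr1c12, Akr1c14 and Akr1c19 were lower in 5, 4 and 5 of 6 mice, Akr1b10 was higher in 5, and Akr1c13 and Akr1c20 were higher in 3.

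**Figure D3:**
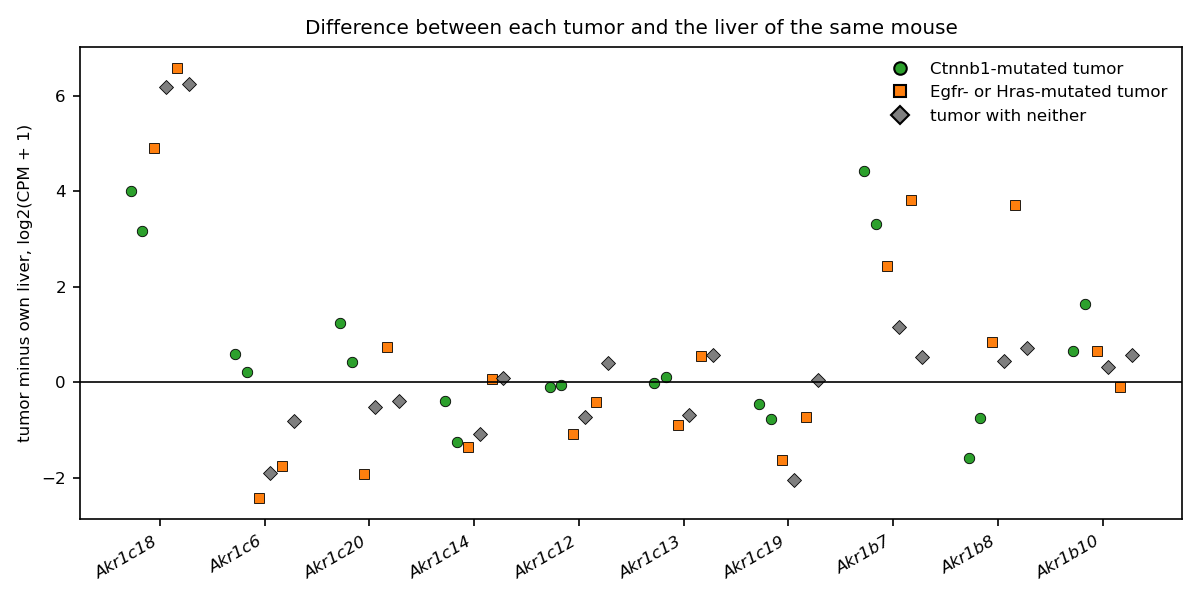
Difference between each tumor and the liver of the same mouse in log2(CPM + 1) (vertical axis) for each gene, with 1 point per mouse and symbols for driver class. Akr1c18 and Akr1b7 lie above 0 in 6 of 6 mice, and Akr1c6 lies above 0 in the 2 mice with Ctnnb1-mutated tumors alone.

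Whether the genes differed with the driver class was tested among the tumors, a comparison that the choice of the genes did not use directly. The fit held all 12 libraries, so the livers, whose levels entered that choice, also set the spread behind each p. In edgeR with Benjamini-Hochberg adjustment over 15182 genes, Ctnnb1-mutated tumors (n = 2) had more Akr1c6 and Akr1c19 and less Akr1c18 than the remaining tumors (n = 4). Akr1c6 averaged 1369 ± 166 CPM (SD, n = 2) against 234 ± 47.1 CPM (SD, n = 4), a log2 difference of 2.55 (SE 0.33, adjusted p = 0.00104 in edgeR). Akr1c18 averaged 12.5 ± 3.76 CPM against 69.6 ± 28.3 CPM, a log2 difference of -2.48 (SE 0.58, adjusted p = 0.0208 in edgeR). Akr1c19 averaged 44.7 ± 0.818 CPM against 13.8 ± 2.88 CPM, a log2 difference of 1.69 (SE 0.49, adjusted p = 0.0446 in edgeR). The call thus covered 3 of the 10 genes, while 12.5% of all genes tested passed the same threshold. The classes did not overlap for 3 genes that were higher (Akr1c6, Akr1c12 and Akr1c19) and 2 that were lower (Akr1c18 and Akr1b8). The share of all genes without overlap in this split is not given here, so nothing is read from that.

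The other 7 genes did not pass. Akr1c12 (58.6 and 59.5 CPM against 23.4 to 47.5 CPM) had a log2 difference of 0.80 (SE 0.29, adjusted p = 0.0903 in edgeR). Akr1b7 differed by 2.20 (SE 0.72, adjusted p = 0.0649 in edgeR) and Akr1b8 by -2.78 (SE 0.97, adjusted p = 0.078 in edgeR), and both passed in DESeq2 (adjusted p = 0.0302 and 0.00787). Akr1c13, Akr1c14, Akr1c20 and Akr1b10 had adjusted p-values between 0.369 and 0.964 in edgeR.

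With the mouse as a block, so that each tumor was read against its own liver, none of the 3 genes passed. In edgeR the log2 difference was then 2.14 for Akr1c6 (adjusted p = 0.0616) and 0.53 for Akr1c19 (adjusted p = 0.668). For Akr1c18 the fit gave -5.11 (adjusted p = 0.206), a value that depends on the prior count because 4 of the 6 livers had no read, and that says nothing on whether the difference between tumors holds. In the p21+/Tert tumors alone (n = 2 against 2), where class and genotype are not mixed, Akr1c6 differed by 2.70, Akr1c19 by 1.94, Akr1c12 by 1.25 and Akr1c18 by -1.95. That fit kept all 12 libraries and made T-HCC941 and T-HCA992 each a group of 1. Its spread came mostly from the livers, so no p is given for it. Leaving out 1 library at a time, Akr1c6 passed in 12 of 12 fits, Akr1c18 in 9 and Akr1c19 in 3. In edgeR the call of Akr1c18 was lost without T-HCC662 (adjusted p = 0.0958), T-HCC663 (0.127) or TCi-HCC981 (0.0522), and that of Akr1c19 was kept only without liver p_663, L981_CI or L984_CI. Calls were gained in edgeR by Akr1c20 without TCi-HCC981 (log2 difference 1.87, adjusted p = 0.0209), by Akr1b8 without T-HCC941 (adjusted p = 0.0154), by Akr1b7 without liver L984_CI (adjusted p = 0.0382) and by Akr1c12 without TCi-HCA984 (adjusted p = 0.0477).

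**Figure D4:**
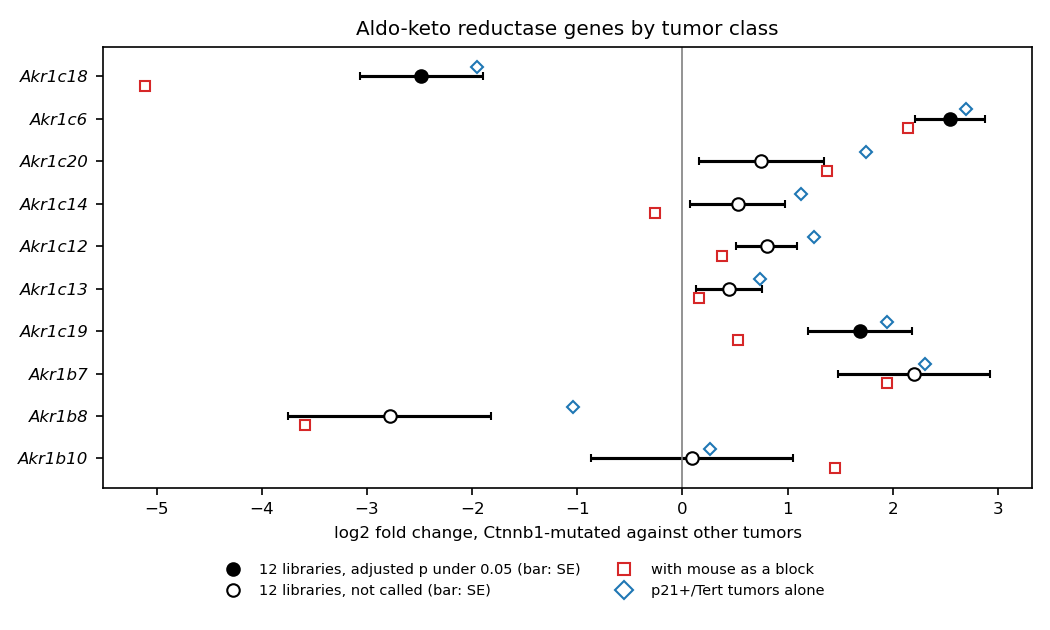
Log2 difference between Ctnnb1-mutated (n = 2) and other (n = 4) tumors on the horizontal axis for each gene, with SE bars, filled where the adjusted p in edgeR is under 0.05. Squares give the fit with the mouse as a block and diamonds the p21+/Tert tumors alone, and Akr1c6 stays above 2 on the log2 scale in all 3 fits.

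Against the livers, the Ctnnb1-mutated tumors did not overlap for 3 of the 10 genes (Akr1c6, Akr1c18 and Akr1b7, all higher), as for 25.1% of the genes tested, and the other 4 tumors did not overlap for 2 genes (Akr1c18 higher and Akr1c6 lower), as for 16.3%. These are descriptions, since livers and tumors entered the choice of genes.

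Summed levels of several marker lists differed between the classes, although few single markers passed. Summed hepatocyte markers (9 genes) were 22150 and 39380 CPM in the Ctnnb1-mutated tumors and 68200 to 97360 CPM in the others. Alb made up most of that gap, with 5982 and 16620 CPM against 47660 to 72140 CPM, so the sum is no measure of hepatocyte content. Of these 9 genes 1 was higher (Cyp2e1), 3 were lower (Cps1, Serpina1a and Alb) and 5 were not called in edgeR. Summed endothelial markers (6 genes, 2 of 6 tested lower) were 50.8 to 95.8 against 134 to 256 CPM, and summed stellate cell and fibroblast markers (7 genes, 1 of 7 tested lower) 30.5 to 74.0 against 147 to 371 CPM. Bile duct markers (7 genes, 1 of 6 tested lower, Sox9) were at 29.6 to 53.8 against 85.4 to 1096 CPM. Spp1 made up 1037 CPM of the highest of these sums and did not pass (adjusted p = 0.0702 in edgeR), and Krt19 had a log2 difference of 1.54 in the other direction (SE 0.98, adjusted p = 0.312 in edgeR). By contrast, macrophage markers (7 genes, 80.2 to 586 against 109 to 954 CPM) and lymphocyte markers (8 genes, 8.88 to 24.4 against 2.90 to 35.5 CPM) overlapped. The part of these cells in the differences of the reductase genes was not tested.

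Steroid-producing cells express several of these genes, and their markers were therefore examined (9 genes). Cyp11b1 and Mc2r had no read in any library, Nr5a1 had reads in 1 library, with 0.0707 CPM, and Cyp11a1 did not exceed 0.0707 CPM except for 1.85 CPM in TCi-HCC981. The summed level was 7.43 to 114 CPM in livers and 9.90 to 186 CPM in tumors, to which Cyp17a1 contributed 1.64 to 98.3 CPM in livers and 2.89 to 165 CPM in tumors. In tumors against livers, Star, Cyp17a1 and Cyp21a1 could be tested, with adjusted p-values of 0.66, 0.31 and 0.753 in edgeR. Hsd3b1 was higher in the Ctnnb1-mutated than in the other tumors (log2 difference 3.16, SE 0.82, adjusted p = 0.0308 in edgeR) at no more than 2.52 CPM.

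Between the Egfr- or Hras-mutated tumors (n = 2) and the driver-negative tumors (n = 2), no gene of the 10 and none of the 15182 passed in edgeR (0.0%). Without adjustment, 2 of the 10 and 8.77% of all genes had a p under 0.05. Akr1b7 (10.3 and 24.4 against 1.61 and 0.511 CPM) differed by 3.97 on the log2 scale (SE 0.98, adjusted p = 0.425 in edgeR), and in DESeq2 it was the 1 member that passed (adjusted p = 0.00539). The share of all genes that DESeq2 called in this comparison is not given here, so that call cannot be set against it. Akr1b8 differed by 2.68 (SE 1.01, adjusted p = 0.535 in edgeR), a value that rests on TCi-HCC981. Akr1c6 and Akr1c18, which were called in the Ctnnb1 comparison, differed here by -0.36 (SE 0.40) and -0.35 (SE 0.59). The study diagnosed both driver-negative tumors as adenomas and both Egfr- or Hras-mutated tumors as carcinomas. Driver class and diagnosis therefore cannot be told apart in this comparison.

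Genotype was compared in the livers first. No gene of the 10 and no gene at all passed between p21+/TertCi (n = 2) and p21+/Tert livers (n = 4) in edgeR (0.0%) and no member passed in DESeq2, with 2 of the 10 and 4.98% of all genes at an unadjusted p under 0.05. Akr1c13 (29.4 and 41.0 against 55.5 to 67.2 CPM) differed by -0.78 (SE 0.28, adjusted p = 0.93 in edgeR) and Akr1c19 (14.1 and 29.0 against 33.8 to 77.3 CPM) by -1.40 (SE 0.62, adjusted p = 0.93 in edgeR). Akr1c6 (449 and 845 against 884 to 1071 CPM) differed by -0.60 (SE 0.74). These 3 genes did not overlap between the genotypes. The share of all genes without overlap in this split of livers is not given here, so nothing is read from that. Liver L981_CI was the high macrophage library (1351 CPM summed), but the other p21+/TertCi liver, L984_CI, had the lowest sum of all livers (123 CPM). The part of macrophages in these differences was not tested. Hsd3b5 was low in both p21+/TertCi livers as given above without passing the test (adjusted p = 0.263 in edgeR), which cannot be told apart from genotype.

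The difference between tumor and liver was then compared between the genotypes with an interaction term. No member and no gene passed in edgeR (0.0%) and no member passed in DESeq2, with 2 of the 10 and 3.66% of all genes at an unadjusted p under 0.05. Akr1b8 had the smallest p of the 10, with a difference larger by 3.85 (log2, SE 1.19, adjusted p = 1 in edgeR) in p21+/TertCi animals, again resting on TCi-HCC981. For Akr1c18 the estimate was 5.12 (SE 2.84), which is no bound and depends on the fit's prior count, since both p21+/TertCi livers were at 0.

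Neighbouring genes were examined to see whether the shifts ran along the chromosome. Of the genes next to the Akr1c group, Akr1c21 stayed at or below 0.359 CPM in all libraries, Akr1e1 (41.5 CPM in livers, 38.1 in tumors) did not pass in either comparison, Ucn3, Tubal3 and 1700016G22Rik had almost no reads, and Net1 was higher in the Ctnnb1-mutated tumors (log2 difference 1.46, SE 0.25, adjusted p = 0.00574 in edgeR) while not passing in tumors against livers (adjusted p = 0.271). Marcksl1-ps4, the pseudogene that shares bases with Akr1c19 and is named for that reason, was higher in the Ctnnb1-mutated tumors, by 1.98 (SE 0.54, adjusted p = 0.0346 in edgeR). Next to the Akr1b group, Akr1b3 rose in tumors, Cald1 was lower in the Ctnnb1-mutated tumors (log2 difference -1.16, SE 0.34, adjusted p = 0.0458 in edgeR), and Slc35b4, Bpgm and Agbl3 passed in neither comparison. Lrguk had no reads.

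The other aldo-keto reductases were compared between tumors and livers, where 10.7% of 13822 genes passed in edgeR. This list and the enzyme and Nrf2 lists below were chosen with earlier results of these data known. Their counts beside that share are therefore a description. Of 10 measured genes 7 could be tested, and 1 rose: Akr1b3, the aldose reductase of the polyol pathway. It was at 0.483 to 2.86 CPM in livers and at 12.7 CPM in TCi-HCC981, 11.5 in T-HCC941, 6.53 in T-HCC663, 5.12 in T-HCA992, 3.29 in TCi-HCA984 and 1.31 in T-HCC662, the one tumor inside the range of the livers, with a log2 difference of 1.93 (SE 0.55, adjusted p = 0.0393 in edgeR). Akr1a1 (aldehyde reductase, -0.41, SE 0.19), Akr1d1 (the steroid 5-beta-reductase of bile acid synthesis, -0.60, SE 0.25) and Akr7a5 (-0.52, SE 0.19) did not pass, with adjusted p-values of 0.183, 0.148 and 0.0942 in edgeR. Akr1e1, Kcnab2 and Kcnab3 did not pass either, and Akr1c21, Akr1cl and Kcnab1 were too low to test. The median log2 difference of the 7 was -0.18, against 0.01 over all genes.

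Other enzymes of the same chemistry moved in both directions. Of 20 tested hydroxysteroid dehydrogenases and steroid reductases, 1 rose (Srd5a3, by 0.61, SE 0.16, adjusted p = 0.0324 in edgeR) and 4 fell, among them Hsd17b2 by 0.94 (SE 0.18, adjusted p = 0.00675 in edgeR) and Hsd3b7 by 0.97 (SE 0.20, adjusted p = 0.0103 in edgeR), with a median of 0.00. Hsd3b5 fell as well, to at most 1.35 CPM in tumors, although both p21+/TertCi livers were already under 0.5 CPM. Of 24 tested alcohol and aldehyde dehydrogenases and carbonyl reductases, 4 rose and 8 fell, with a median of -0.46. Cbr3, a carbonyl reductase, rose by 5.84 (SE 0.86, adjusted p = 0.0018 in edgeR), and Cbr1 and Aldh18a1 rose by 1.43 and 2.23. Aldh1l1, Aldh7a1 and Aldh8a1 fell by 1.48, 1.33 and 0.91.

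Of 23 tested targets of Nrf2, the regulator of the antioxidant response, 8 rose, none fell and 15 did not pass, with a median of 1.08. The paper had already reported overexpression of Nrf2 target genes in tumors of both genotypes, so these counts are not independent of it. It also described sets of targets that differed between β-catenin-activated and MAPK-activated tumors, with Slc7a11 mainly high in the latter. There Akr1b10 was placed with the sets mainly high in T-HCC662, T-HCC663 and a tumor not among the libraries used here. In the Ctnnb1 comparison here Akr1b10 differed by 0.089 (log2, SE 0.96, adjusted p = 0.964 in edgeR). Srxn1 (sulfiredoxin) rose by 1.95 (SE 0.25, adjusted p = 0.000956 in edgeR), from 52.9 to 85.2 CPM in livers to 142 to 426 CPM in tumors. Slc7a11, the cystine transporter, rose from at most 0.378 CPM in livers to 4.91 to 131 CPM in tumors (adjusted p = 0.00122 in edgeR), and the transporter Abcc4 rose by 3.71 (SE 0.60, adjusted p = 0.00274 in edgeR). Between the Ctnnb1-mutated and the other tumors, 3 of 24 tested Nrf2 targets were higher and 3 were lower in edgeR. Gstm2 (log2 difference 3.41, adjusted p = 9.93e-05), Gstm3 (2.30, adjusted p = 0.0285) and Me1 (1.55, adjusted p = 0.0404) were the higher ones in edgeR, and Osgin1 (-1.67, adjusted p = 0.0423), Slc7a11 (-2.86, adjusted p = 0.0456) and G6pdx (-2.92, adjusted p = 0.0496) the lower ones. Over these 4 lists 26 of 74 genes passed in tumors against livers in edgeR. In the p21+/Tert animals alone 17 of 78 passed, where 6.49% of all genes did, and 37 had an unadjusted p under 0.05, as did 23.0% of all genes. In the p21+/TertCi animals 0 passed in edgeR, as for all genes (0.0%), 16 had an unadjusted p under 0.05, as did 10.7% of all genes, and DESeq2 called 9.

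Across the 12 libraries, the genes whose log2(CPM + 1) was most like that of Akr1c18 among 13381 compared were Tnfrsf10b (Pearson r = 0.976), Tgfb2 (0.969), Mllt3 (0.965), Gpnmb (0.959) and Tc2n (0.955). These correlations share the contrast of livers with tumors and are a description. Within the 6 tumors, among 13493 genes, Slc35b1 (0.997), Srp68 (0.996), Dhrs3 (0.995), Kynu (0.993) and Nfil3 (0.992) were most like Akr1c18. Atf4 (0.986), Nhp2l1 (0.986), Ttc1 (0.980), Mrpl30 (0.980) and Acp5 (0.979) were most like Akr1b7, and Airn (0.995), Isoc2a (0.993), Fxyd1 (0.993), Axin2 (0.993) and Pddc1 (0.993) were most like Akr1c6. The 6 tumors share classes and genotypes, and no p is given. With 0.1 CPM added in place of 1 CPM, 1 of the 5 genes most like Akr1c18 over 12 libraries was shared (Mllt3), and within tumors 5 of 5 were for Akr1c18, 2 of 5 for Akr1b7 and 4 of 5 for Akr1c6.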

How the data were processed

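The authors deposited raw read counts per gene for each of 12 bulk poly(A) RNA libraries. According to the study's methods and the submitters' processing notes, reads were aligned with Subread to mm10 and counted with featureCounts 1.6.4, and whether counting used strand or kept multi-mapping reads is not given in the sources used here. Groups came from the sample labels and driver classes from the study's exome sequencing. The 10 genes and all lists were chosen with earlier results of these data known.

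Counts were tested with edgeR 4.0.16 (R 4.3.3, TMM, filterByExpr, quasi-likelihood, all 12 libraries in each model, Benjamini-Hochberg over all genes tested). The study's term for sequencing run was not used, since the run of a library is not given in the sources used here. DESeq2 1.42.0, other scaling, no filter on low counts, the mouse as a block and leaving out each library were alternatives. The code was tested on simulated data. Levels per kb used the union of exons, and sequences came from RefSeq (GRCm38.p6). Where nothing else is stated, p-values measure the spread between lesions and livers of single mice.

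Tumor and liver share a mouse by number in 5 pairs, and liver p_961 was taken as the partner of T-HCC662. Deviations of a tumor and its own liver from their group means correlated at 0.00583 to 0.542 over 13822 genes. T-HCC663 and T-HCC941 correlated better with another p21+/Tert liver (0.166 and 0.0703) than with their own (0.0398 and 0.00583), and the value of 0.542 for both p21+/TertCi pairs follows in mirror image from groups of 2. The mouse was used as a block in the paired alternative because 5 pairs share a number; the sixth pair was assumed.

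Genes named beyond the 10 were all measured other aldo-keto reductases, up to 3 called genes of smallest p per list and direction, 3 counted neighbours on each side of both gene groups, the 5 genes of highest Pearson r, and marker genes. The Nrf2 targets named in the Ctnnb1 comparison, Hsd3b1 and Marcksl1-ps4 were singled out after their values were seen.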

Additional observations from a re-analysis of the deposited data

Results flagged for a closer look

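In 5 of 38 groups tested, 1 library lay farther from the rest than Dixon's 95% limit, which chance exceeds in about 1 of 20 groups. Akr1c6 was lowest in liver L984_CI (449 CPM). Akr1c20 was highest in liver NT_992 (68.6 CPM), both among all livers and among p21+/Tert livers. Akr1b8 was highest in TCi-HCC981 (43.9 CPM) among tumors. Akr1b10 was highest in liver L981_CI (6.34 CPM), the liver with the highest macrophage markers, whose part in the value was not tested.

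Akr1c14 had differences of opposite sign by genotype: on the log2(CPM + 1) scale, tumor minus own liver was -1.36 to -0.40 in 4 of 4 p21+/Tert mice and 0.076 and 0.099 in the 2 p21+/TertCi mice. The interaction term was 1.02 on the log2 scale (SE 0.64, adjusted p = 1 in edgeR), so the difference did not pass.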

How the results depend on the processing

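For the Ctnnb1 comparison, 3 of the 10 genes passed, against 5 in DESeq2, 0 with the mouse as a block and 0 with the block by numbers as labelled, and 1 to 4 when 1 library was left out. Over all genes the count was 1895, against 3111 in DESeq2, 441 with the mouse block and 67 with the numbers as labelled. In the other comparisons where the 10 genes were tested, edgeR made no call that the pairing block could have ended. DESeq2 called 1 of the 10 genes in the Egfr or Hras comparison (Akr1b7), against 0 in edgeR. Apart from the Ctnnb1 comparison, the number of all genes called in DESeq2 is not given here, so its other counts have no share beside them. Of the 4 enzyme and Nrf2 lists, 17 genes passed in p21+/Tert animals, against 27 in DESeq2, 26 with the mouse block and 4 (without liver p_961) to 20 (without T-HCC662) with 1 library left out, and 0 passed in p21+/TertCi animals against 9 in DESeq2. The cause of these shifts was not tested.

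The difference of Akr1b8 between tumors and livers (1.83) ranged from -0.094 to 2.09 with 1 library left out, reversing without TCi-HCC981. Alternatives chosen after seeing the data concerned separation of groups with 1 library left out. All tumors separated from livers for 1 to 2 genes (2 without TCi-HCA984), and the tumors without a Ctnnb1 mutation for 2 to 3. No count is given for the Ctnnb1-mutated tumors, since leaving out T-HCC662 or T-HCC663 left a single tumor. The share of all genes is not given for these reduced sets, so nothing is read from these counts.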
